A study of Gelatoporia subvermispora and Trametes versicolor with 24 samples.

Results

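Trametes versicolor is a white-rot fungus, a wood-decaying basidiomycete able to degrade lignin, the phenolic polymer that stiffens wood. The comparison described here is that of static T. versicolor cultures given the antioxidants ascorbic acid and α-tocopherol with static cultures given none. It uses 6 of the 24 libraries of the series, 3 with antioxidants and 3 without, chosen by species, agitation and antioxidant treatment as the sample titles state them. The 6 agitated T. versicolor libraries, 3 with and 3 without antioxidants, entered the same statistical model and serve to test whether the static response differed from that in shaken flasks. The remaining 12 libraries are of another species, Gelatoporia subvermispora, and were not used.

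All 12 libraries came from cultures of strain FP-10164. The cultures were grown at 28 °C in 250 mL flasks holding 25 mL of Czapek-Dox medium. Cellobiose, a sugar released from cellulose, was supplied in it at 15 mM. Static flasks stood still, and agitated flasks were shaken at 220 rpm. Where antioxidants were given, 5 mM ascorbic acid was put into the medium together with 1 mM α-tocopherol 30 min before induction. On day 6 every culture, treated or not, was induced with 4-hydroxybenzoate, an aromatic acid related to lignin, at about 2 mM, and mycelium was harvested 24 h later, on day 7. No group lacked 4-hydroxybenzoate, so its own effect and any interplay with the antioxidants cannot be read from these libraries. Both antioxidants were always given together, so the effect of one cannot be told apart from that of the other. The labels do not say whether replicates came from separate flasks, so the spread behind the p-values may be partly technical.

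White-rot fungi attack lignin with secreted oxidative enzymes, among them peroxidases and laccases, which turn phenolic compounds into radicals. Ascorbic acid is a water-soluble reductant that reduces phenoxyl radicals and quinones, and α-tocopherol is a lipid-soluble antioxidant that stops chains of lipid peroxidation in membranes. Standing mycelium forms mats with uneven oxygen supply, while shaken mycelium is kept mixed and aerated.

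The deposited tables list genes under running numbers, which are not linked there to names or products. Lists of peroxidases, laccases, cytochromes P450, oxidant defence genes and the like could therefore not be filled, and the genes are described by how they responded. Values are in CPM, the reads of a gene relative to the reads of all genes tested in that library, after TMM scaling of the libraries. In bulk mycelium, fewer hyphae carrying a transcript and less transcript per hypha cannot be told apart.

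Assigned reads came to 4784617 to 5579448 per static library with antioxidants and 3431340 to 5945365 per static library without. The agitated libraries held 5621837 to 6725806 each. Of 14570 genes, 10505 had enough reads to be tested. In a principal component analysis of the 6 static libraries, the first component, 32.3% of the variance, placed all 3 antioxidant libraries on one side and all 3 others on the opposite side. The second, 27.8%, did not separate the groups. Over all 12 libraries the first component, 55.9% of the variance, separated static from agitated cultures. Replicates varied least in static culture. The median over genes of the SD of log2 CPM between replicates was 0.19 with and 0.20 without antioxidants in static culture, against 0.26 with and 0.24 without them in agitated culture. Agitated replicate 1 of either group correlated least with its own group, at 0.957 to 0.959 with antioxidants and 0.955 to 0.964 without.

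The static antioxidant libraries also differed from the others in how their reads were assigned. Reads that could not be aligned made up 20.7%, 22.3% and 21.2% of their reads, against 17.3%, 14.8% and 19.2% in static libraries without antioxidants. Reads outside genes made up 14.7%, 15.3% and 14.5% in static antioxidant libraries, against 13.96%, 11.7% and 13.2% in static libraries without. The 6 genes with the most reads, a set chosen from these counts, took 23.7%, 26.9% and 23.8% of assigned reads in static antioxidant libraries, against 21.7%, 12.8% and 19.1% in static libraries without. For all 3 measures the static groups did not overlap. Each had an exact two-sided permutation p of 0.10, the smallest that 3 against 3 libraries allow, and 0.175 after Benjamini-Hochberg adjustment over 7 measures. The part of these differences in the gene-level results was not tested. Leaving the 6 most-read genes out of the table, a choice made after seeing the data, gave 47 called genes in place of 44. That fit takes out those 6 genes only, so it cannot speak to the unaligned reads or the reads outside genes.

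The static comparison asks what the antioxidants changed in standing cultures, and the answer was a short list of rises. Of 10505 genes, 44 were called at an adjusted p under 0.05 in edgeR's quasi-likelihood test, or 0.419% of those tested. 43 of them rose with antioxidants (0.409%) and 1 fell (0.00952%). Of the risen genes, 38 rose by 2-fold or more, 14 by 4-fold or more and 4 by 8-fold or more, while the 1 fall was larger than 2-fold. The log2 fold changes of the 43 risen genes ran from 0.73 to 3.65 with a median of 1.64. The median over all tested genes was -0.01. Beyond the called genes, 32 stood at an adjusted p from 0.05 to 0.1, of which 30 were higher with antioxidants. At an unadjusted p under 0.05 there were 585 genes, of which 388 were higher and 197 lower. That wider split changed with the scaling. Scaling by library totals only shifted the log2 fold change of the median gene to -0.18, and 175 genes were then higher and 828 lower. The called genes were then 28 higher and 3 lower.

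**Figure D1:**
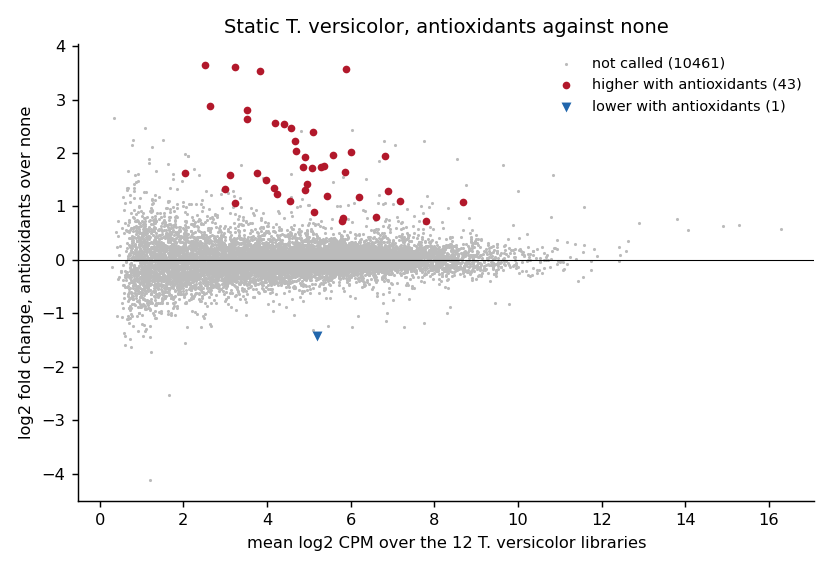
Log2 fold change with over without antioxidants in static culture (vertical axis) against the log2 of the average CPM over 12 libraries (horizontal axis, labelled mean log2 CPM), 1 point per tested gene. The 43 risen genes (red circles) spread over much of the range of read counts, and the 1 fallen gene is the blue triangle.

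The number of calls rested on the whole set of libraries. Leaving out static antioxidant replicate 1, 2 or 3 gave 23, 16 and 32 calls. Leaving out static replicate 1, 2 or 3 without antioxidants gave 21, 17 and 12 calls. All calls in these 6 fits were rises. Of the 44 genes, 12 were called in each of the 6, and none of the 44 changed sign in any of the 21 alternatives run. In the other direction, a fit of the 6 static libraries alone, which leaves out the more variable agitated libraries, called 145 genes with 124 rises and 21 falls. All 44 genes were among them. Leaving out replicate 1 of both agitated groups, a choice made after seeing the data, gave 116 calls with 103 rises and 13 falls.

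**Figure D2:**
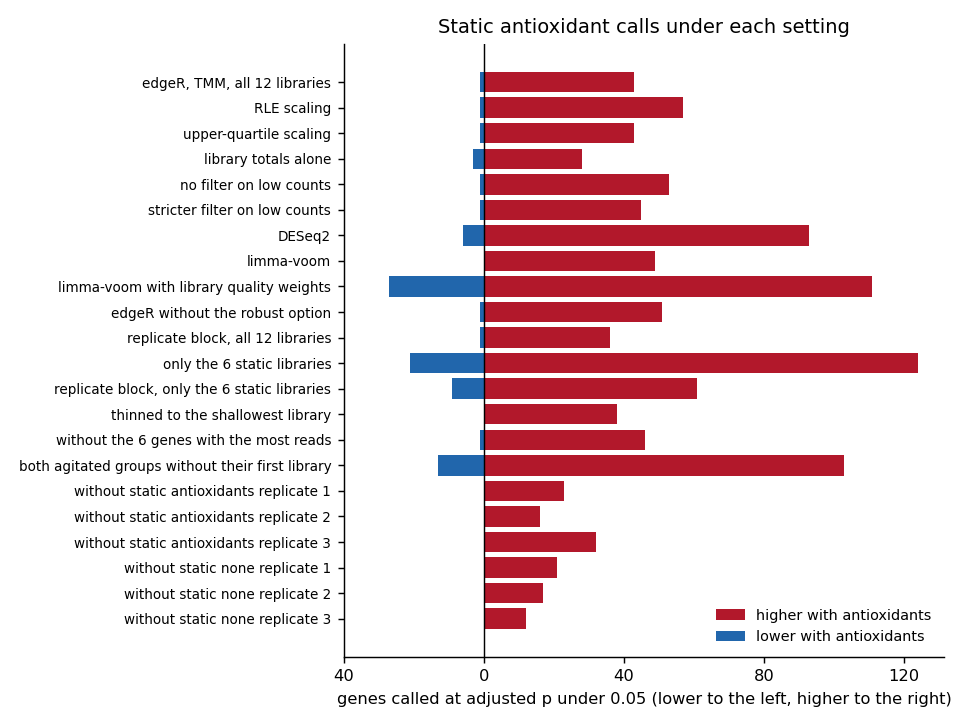
Number of genes called in static culture under each setting, with genes higher with antioxidants to the right in red and genes lower to the left in blue. Rises outnumber falls in all 22 settings, and the total lies between 12 and 145.

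The log2 of the average CPM over the 12 libraries had a median of 4.90 over the 43 risen genes. It was 4.60 over all tested genes. None of the 43 was among the 200 genes with the most reads. Those 200 are a small share of the 10505 tested, so this says little about the list. Together the risen genes took 0.340%, 0.372% and 0.323% of assigned reads in static antioxidant libraries, against 0.143%, 0.150% and 0.143% in static libraries without. In agitated libraries the same genes took 0.162%, 0.177% and 0.191% with antioxidants and 0.189%, 0.193% and 0.164% without. These genes were chosen by the static contrast, so the static values describe the list and do not test it. The median of the 43 genes was 47.8, 52.5 and 48.1 CPM in static antioxidant libraries and 14.5, 15.7 and 14.7 CPM in static libraries without. The 6 agitated libraries lay between, at 18.1, 21.6 and 22.2 CPM with antioxidants and 22.3, 24.7 and 22.1 CPM without. The median of all tested genes stayed between 21.9 and 24.0 CPM in the 12 libraries. The 3 static antioxidant libraries lay above the 3 others for all 43 risen genes. Among all tested genes, the static groups did not overlap for 15.7%, counting both directions. Static antioxidant replicate 2 was the highest of its group for 26 of the 43, and for 38.7% of all tested genes. It also had the largest share of unaligned reads and of reads from the 6 most-read genes.

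**Figure D3:**
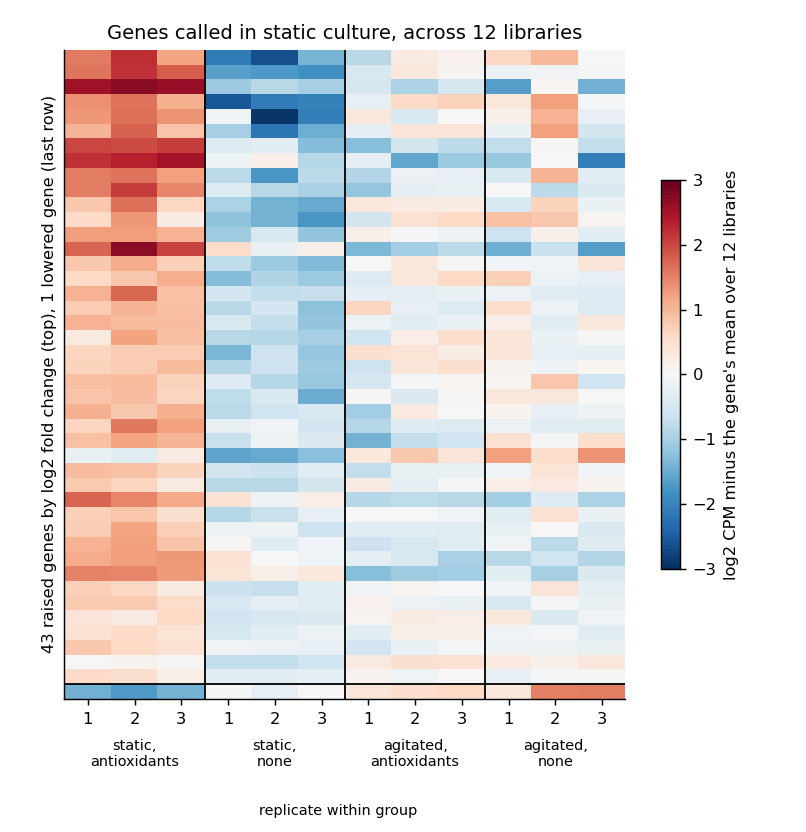
Log2 CPM of each called gene minus its mean over the 12 libraries, in colour, with 1 row per gene and 1 column per library. The 43 risen genes are ordered by fold change above the line and the 1 fallen gene is below it. The static antioxidant columns are the reddest for most risen genes, and the static columns without antioxidants are bluest for most of the genes with the largest rises.

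Set against the agitated libraries, the risen genes showed 4 patterns that held all but 1 of them. The same static libraries chose the genes, so these patterns are descriptions. In 17 genes the static libraries without antioxidants lay neither all below nor all above the agitated ones, and all 3 static antioxidant libraries stood above all 6 agitated ones. That arrangement held 39.5% of the risen genes and 4.66% of all tested genes. The median of the 17 was 50.0 CPM with and 10.9 CPM without antioxidants in static culture, and 12.5 CPM with and 17.4 CPM without them in agitated culture. In 11 genes the static libraries without antioxidants lay below all 6 agitated libraries, and the static antioxidant libraries did not all rise above the agitated ones, which was so for 25.6% of the risen genes and 16.3% of all tested genes. Here the medians were 44.2 CPM with and 13.9 CPM without antioxidants in static culture, and 27.9 CPM with and 32.1 CPM without them in agitated culture. A further 10 genes went across the agitated range, with static antioxidant libraries above all 6 agitated libraries and static libraries without antioxidants below all 6. Their medians were 64.3 CPM with and 17.99 CPM without antioxidants in static culture, against 33.9 CPM with and 33.4 CPM without them in agitated culture. They were the only 10 of the 10505 tested genes with that arrangement. In the last 4 genes both static groups stood above all agitated libraries, at a median of 218 CPM with and 75.4 CPM without antioxidants, against 35.9 CPM with and 36.1 CPM without them in agitated culture. This was 9.30% of the risen genes, against 11.5% of all tested genes. Among all tested genes, static antioxidant libraries stood above all 6 agitated ones for 16.2%, and static libraries without antioxidants lay below all 6 for 16.4%.

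Better-counted genes are those for which the log2 of the average CPM over the 12 libraries was 3 or more. The highest libraries weigh most in that average. Among better-counted genes whose static groups did not overlap, the largest rise was that of gene7578. This gene passed at 3.23, with its highest values in static antioxidant libraries. It stood at 18.96, 27.7 and 21.9 CPM in static antioxidant libraries, from 90, 125 and 119 reads. Static libraries without antioxidants had 2.00, 1.89 and 1.73 CPM, from 7, 13 and 10 reads. Every antioxidant library was thus far above every library without, and the low group rests on few reads. The log2 fold change was 3.60 (SE 0.26, edgeR adjusted p = 1.55e-05), and all 21 alternatives called it, with values from 3.43 to 3.72. In agitated culture gene7578 had 4.44, 7.75 and 6.62 CPM with antioxidants and 5.48, 5.72 and 6.03 CPM without, 2 sets that overlapped. These agitated values lay above the static level without antioxidants and below the static level with them, so gene7578 was 1 of the 10 genes that crossed the agitated range.

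gene7591 rose to a similar degree from a higher count. Static antioxidant libraries had 175, 196 and 184 CPM, from 830, 884 and 1002 reads. Static libraries without antioxidants had 14.3, 17.03 and 15.2 CPM, from 50, 117 and 88 reads. The spread within either group was small beside the gap, and the log2 fold change was 3.57 (SE 0.37, edgeR adjusted p = 0.000936). It was called in all 21 alternatives, with values from 3.40 to 3.65. The agitated libraries had 21.3, 15.8 and 21.2 CPM with antioxidants and 9.62, 31.5 and 11.1 CPM without. The static libraries without antioxidants lay within this agitated range, and the 3 static antioxidant libraries stood above all 9 others.

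The 1 gene that fell was gene13672. It had 10.5, 8.87 and 10.9 CPM in static antioxidant libraries, against 28.2, 24.2 and 29.1 CPM in static libraries without. The groups did not overlap, and the log2 fold change was -1.42 (SE 0.27, edgeR adjusted p = 0.0368). The call was lost without any 1 of the 6 static libraries and in 2 further alternatives, with an adjusted p from 6.56e-05 to 0.234 over all 21, while the log2 fold change stayed between -1.58 and -1.34. In agitated culture gene13672 had 37.0, 40.9 and 43.3 CPM with antioxidants and 36.1, 82.8 and 82.9 CPM without. There the log2 fold change was -0.73 (SE 0.24), which did not pass (edgeR unadjusted p = 0.00953, adjusted p = 0.650). The static effect minus the agitated effect was -0.69 (log2, SE 0.36) and did not pass either (edgeR adjusted p = 0.97). The fall of gene13672 was thus not shown to differ between the culture states. The static antioxidant libraries were the lowest of the 12 for this gene.

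**Figure D4:**
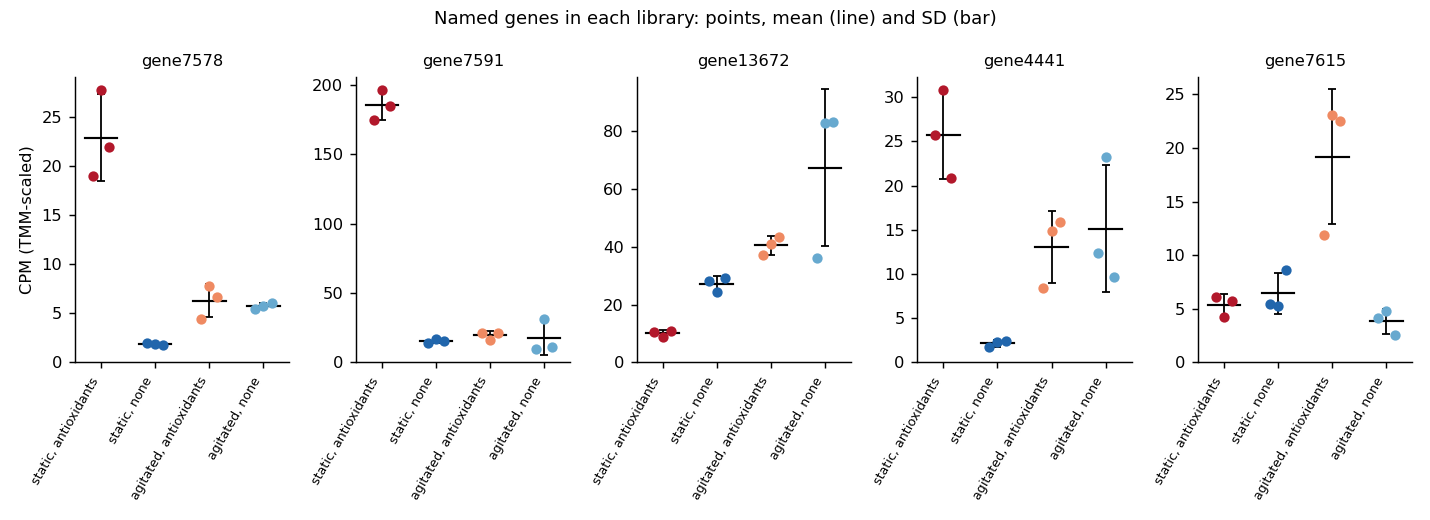
CPM of the named genes in each of the 12 libraries, with 1 point per library, the mean as a line and the SD over 3 libraries as a bar. gene7578, gene7591 and gene4441 are highest on average in static cultures with antioxidants, gene13672 is lowest there, and gene7615 is highest in agitated cultures with antioxidants.

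Several risen genes had consecutive numbers. Of the 43, 9 had another risen gene at the next number up or down, in 4 runs of which the longest held 3 genes. Of the 67 tested genes 1 number away from a risen gene, 9 had risen themselves, or 13.4%, against 0.409% of all tested genes. Of the other 58, 36 were higher with antioxidants and 10 were higher at an unadjusted p under 0.05, while 0 were lower at that p. Among all tested genes, 48.1% were higher, 3.69% were higher at an unadjusted p under 0.05 and 1.88% were lower at that p. gene7578 belonged to such a run of 2: its neighbour at the number before it had a mean of 49.9 CPM with and 14.9 CPM without antioxidants in static culture (log2 fold change 1.72, edgeR adjusted p = 0.00113). Under the alternatives, between 4 and 35 risen genes had a risen neighbour by number, in lists of unlike length. It was 4 of 12 risen genes in the shortest list and 35 of 124 in the longest. Whether the numbers follow the order of genes on the chromosomes is not given in the sources used here. Adjacent or near-identical genes can also share reads, and the part of this in the runs was not tested.

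The antioxidant effect in agitated culture is measured in libraries that do not enter the static fold changes, although they share the estimate of the spread, the filter and the scaling with them. There the antioxidants raised 3 genes and lowered 0, or 0.0286% of those tested, by edgeR's quasi-likelihood test. At an unadjusted p under 0.05 there were 684 genes, 275 higher and 409 lower, and DESeq2 called 25 genes. None of the 44 genes called in static culture was called in agitated culture by edgeR, and 3 of the 43 risen genes (6.98%) had an unadjusted p under 0.05 there, against 6.51% of all tested genes. All 3 were lower with antioxidants in agitated culture, with log2 fold changes from -1.20 to -0.55. Of the 43 risen genes, 18 had a positive log2 fold change in agitated culture, or 41.9%, against 51.1% of all tested genes. Their median there was -0.05, with a range from -1.20 to 0.39, against a median of 0.01 over all tested genes. The 3 genes raised in agitated culture had log2 fold changes of -0.27 to 0.26 in static culture, and none of them was called there. The agitated count depended on single libraries. It was 6, 1 and 1 without agitated antioxidant replicate 1, 2 or 3, and 17, 35 and 0 without agitated replicate 1, 2 or 3 of the cultures without antioxidants. Without replicate 1 of both groups it was 42, with 12 rises and 30 falls.

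**Figure D5:**
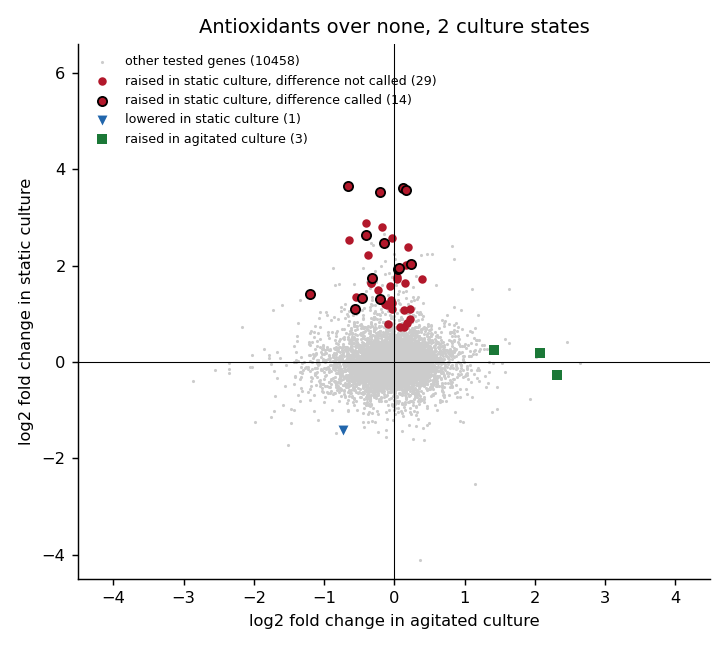
Log2 fold change with over without antioxidants in static culture (vertical axis) against that in agitated culture (horizontal axis), 1 point per tested gene, from libraries that are not shared. The 43 genes raised in static culture (red) lie between -1.20 and 0.39 on the horizontal axis, and black rims mark the 14 whose difference between culture states was called.

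A call in static and none in agitated culture does not show that the effects differ, so the difference between the antioxidant effects was tested for every gene. It passed for 15 of 10505 genes (0.143%, edgeR adjusted p under 0.05), of which 14 had the more positive effect in static culture and 1 the more negative. All 14 were among the 43 risen genes, and this test shares the 6 static libraries with the one that chose them. For the other 29 risen genes the difference did not pass, which does not show that they responded alike in both states. Leaving out 1 of the 12 libraries at a time gave 8 to 19 genes, the lowest of them when replicate 3 of the static group without antioxidants was left out. Without replicate 1 of both agitated groups it gave 55.

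gene4441 had the largest positive difference among better-counted genes, at 3.74 (log2, SE 0.49, edgeR adjusted p = 0.00533). It stood at 25.7, 30.8 and 20.8 CPM in static antioxidant libraries and at 1.71, 2.33 and 2.42 CPM in static libraries without, where 6, 16 and 14 reads were counted. In agitated culture it had 8.41, 14.8 and 15.9 CPM with antioxidants and 12.4, 23.2 and 9.71 CPM without, which overlap. The static libraries without antioxidants were thus the low ones, below all 9 others. The static log2 fold change was 3.53 (SE 0.37, edgeR adjusted p = 0.000482), and the agitated one was -0.21 (SE 0.31, edgeR adjusted p = 0.915). The difference was called in all 24 alternatives, with values from 3.22 to 3.97. The gene at the next number rose as well, to a mean of 12.03 CPM with antioxidants, against 0.940 CPM without, in static culture (log2 fold change 3.65, edgeR adjusted p = 0.000973). That neighbour was not among the better-counted genes. Its static libraries without antioxidants had only 0.856, 0.582 and 1.38 CPM, so its fold change rests on very few reads.

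gene7578 came next, its log2 difference being 3.48 (SE 0.35, edgeR adjusted p = 0.00115), also called in all 24 alternatives. For gene7591 the difference was 3.40 (SE 0.50, edgeR adjusted p = 0.0247). The 1 gene with a more negative effect in static culture was gene7615, at -2.59 (SE 0.46, edgeR adjusted p = 0.0437). It had 6.11, 4.21 and 5.71 CPM with and 5.42, 5.24 and 8.65 CPM without antioxidants in static culture, where the groups overlapped and the log2 fold change was -0.27 (SE 0.33, edgeR adjusted p = 1). In agitated culture it had 11.9, 23.1 and 22.5 CPM with and 4.14, 4.83 and 2.51 CPM without, a log2 fold change of 2.32 (SE 0.31, edgeR adjusted p = 0.0127). The 3 agitated antioxidant libraries stood above all others. The call for the difference was lost in 15 of 24 alternatives, with an adjusted p from 0.000312 to 0.190 over all 24, while the difference stayed between -2.91 and -2.30.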

How the data were processed

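RNA was sequenced in 24 libraries, and the 12 T. versicolor libraries were analysed. Per the labels' protocols, DNase-treated total RNA went into a stranded library kit. Each library has 1 deposited table of raw counts, the number of reads per gene, made by the authors and not normalised. HTSeq, Bowtie, Bowtie2 and FastQC are named, without versions or roles, per the submitters' processing notes. The sources used here give no genome build, annotation or strand setting, so overlapping, antisense and near-identical genes are uncertain. HTSeq's summary lines entered neither library sizes nor tests. Between 48.9 and 63.9% of reads per library were assigned to genes.

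Counts were analysed with edgeR 4.0.16 in R 4.3.3: filterByExpr, TMM scaling, a robust quasi-likelihood fit of 4 group means over all 12 libraries with 8 residual degrees of freedom, and Benjamini-Hochberg adjustment over 10505 genes. SEs are the log2 fold change divided by the root of the F statistic. Named genes were the 2 that rose most and the 2 that fell most, at adjusted p under 0.05, among better-counted genes whose static groups did not overlap. Better-counted means that the log2 of the average CPM over the 12 libraries, edgeR's aveLogCPM, was 3 or more. That average leans on the highest libraries, and gene7578 (3.23) and gene7615 (3.19) passed it narrowly. For the difference between effects the overlap condition was dropped. Only 1 gene met the rule for falls in each comparison. The genes given by their neighbouring number and the differences of gene7591 and gene13672 were added after their values were seen. The comparison, its rules and lists were chosen with earlier results of these data known. Alternatives used DESeq2 1.42.0, limma 3.58.1 (voom), other scalings, filters and sets of libraries. The static test was run on simulated data with known changes in genes averaging at least 3 CPM. It found 62 of 100 genes changed 2-fold and 91 of 100 changed 4-fold, with 4 false calls. Changes of about 2-fold can therefore be missed. No replicates agreed within sampling noise, since the chi-square per degree of freedom of their counts was 2.99 to 60.0.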

Additional observations from a re-analysis of the deposited data

Results flagged for a closer look

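The antioxidant effect differed between static and agitated culture for 15 genes by the test of the difference itself. The 4 named ones were gene4441 with 3.74, gene7578 with 3.48, gene7591 with 3.40 and gene7615 with -2.59 on the log2 scale, where a positive value means a more positive effect in static culture.

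Outside the gene counts, reads that could not be aligned averaged 21.4% ± 0.796 (SD, n = 3) in static antioxidant libraries and 17.1% ± 2.19 in static libraries without, with no overlap between the groups. Reads outside genes averaged 14.8% ± 0.427 with and 12.95% ± 1.17 without antioxidants in static culture. In agitated libraries unaligned reads averaged 16.6% ± 2.25 with and 17.1% ± 1.54 without antioxidants. Their part in the 43 rises was not tested.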

How the results depend on the processing

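Static antioxidant calls numbered 99 with DESeq2, 138 with limma-voom and library quality weights, 145 with only the 6 static libraries, 70 with those and the replicate number as a block, and 116 without replicate 1 of both agitated groups (added after seeing the data), against 44. Leaving out 1 static library gave 12 to 32. The other settings gave 31 to 58. Agitated calls numbered 25, 7 and 1 with DESeq2, quality weights and the block over all 12 libraries, 0 with only the 6 agitated libraries (341 at an unadjusted p under 0.05) and 42 without replicate 1 of both groups, against 3. Leaving out 1 agitated library gave 0 to 35. Genes whose effects differed numbered 64 with DESeq2, 38 with quality weights and 55 without both agitated replicates 1, against 15, and 8 to 19 without 1 library. With the block over all 12 libraries there were 37 static calls, 35 of them among the 44, and 11 differences. The labels do not say what a replicate number stands for, so the numbers were not treated as pairs. Deviations of same-number static libraries from their group means correlated at -0.127, -0.305 and 0.099. For static libraries of different numbers, 1 with and 1 without antioxidants, these correlations ran from -0.191 to 0.264. The causes of these changes were not tested. Where an alternative leaves 2 libraries in a group, its spread is taken mainly from the other groups. Depth limits the low groups of gene7578 and gene4441, which rest on 6 to 16 reads. Of the 43 risen genes, 5 had under 10 reads in at least 1 static library without antioxidants, and the lowest count was 3.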
